A study of Arabidopsis thaliana with 6 samples.

Results

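The genes described here encode enzymes and proteins that build, acetylate and loosen the plant cell wall, measured in whole Arabidopsis thaliana seedlings. They were chosen by name, as probe sets paired with 1 gene whose symbol belongs to the TBL, XTH, expansin (EXPA, EXPB, EXLA), CESA, CSLA, CSLB, CSLC, CSLD, CSLG, GAUT, GATL, IRX, COBL, FLA or PME families, or is COB. The rule found 61 of 22746 probe sets (of 13513 with 1 named gene), each for a different gene and all with a locus in RefSeq. The 61 were 22 TBL, 9 XTH, 17 expansin (10 EXPA, 4 EXPB, 3 EXLA) and 8 CSL genes (5 CSLC, 2 CSLA, 1 CSLD), with 2 IRX genes and 1 each of COB, GAUT and PME. No CESA, CSLB, CSLG, GATL, COBL or FLA gene was among them, so the cellulose synthases themselves are not analysed here. The symbol ATCSLC08 was the only one with the prefix AT.

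All seedlings were of the Nossen (No-0) accession, 5 days old and grown in light. The 3 wild type samples were compared with 3 samples of the fbp7-3 mutant, which is affected in the F-box protein gene FBP7. F-box proteins select the substrates of SCF ubiquitin ligases. Each sample, of about 80 mg of seedlings, went to its own ATH1 array. The labels do not say whether the plants of the samples were grown separately or what kind of lesion fbp7-3 is, so the p-values below speak only of how these samples vary, which may be technical. FBP7 was not paired with a probe set in the annotation used, and its level is not analysed here.

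The growing plant wall is a cellulose network held together by hemicelluloses such as xyloglucan, xylan and mannan, within a gel of pectin. Cellulose is spun out at the plasma membrane, while hemicelluloses and pectin are made in the Golgi and secreted. In the wall, expansins loosen the contacts between polymers, XTH enzymes cut and rejoin xyloglucan, and pectin methylesterases change how pectin binds calcium. TBL proteins include Golgi enzymes that add acetyl groups to these polymers. In seedlings this machinery accompanies the elongation of hypocotyl, root and root hairs and the expansion of cotyledons.

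No member of these families passed the test across all probe sets, although 4 of the brighter ones differed by 1.53- to 1.60-fold between groups that did not overlap. Of the 61 members, 0 had an adjusted p under 0.05 (limma on log2(signal + 16), mutant minus wild type, Benjamini-Hochberg over 22746 probe sets), where 0.33% of all probe sets did. Unadjusted p-values under 0.05 were found for 11 members (18.0%, against 10.3% of all probe sets), 5 of them higher in the mutant (5.23% of all) and 6 lower (5.05%). The 3 mutant arrays did not overlap with the 3 wild type arrays in 12 members (19.7%, against 15.5% of all), 7 of them higher (8.11%) and 5 lower (7.39%). Both shares lay above those of all probe sets, the unadjusted one by more. The median absolute log2 change was 0.20 over the members and 0.16 over all probe sets.

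When the probe sets with the lowest mean signal, 25% of the table, were left out before the fit, 48 of the 61 members remained and 4 passed the threshold. These were the expansin genes EXPB3 and EXPA4 and TBL36, all lower in the mutant, and XTH16, which was higher. The 4 of 48 are 8.33%, against 1.06% of the 17059 probe sets of that fit (0.522% higher and 0.533% lower). In the test on all probe sets their adjusted p-values were 0.055 for EXPB3, 0.0799 for EXPA4, 0.1002 for TBL36 and 0.0662 for XTH16, so their call depends on the dim probe sets that are kept. EXPB3 and XTH16 also passed on all probe sets with a pseudocount of 1 (0.462% of probe sets called) and with robust eBayes (0.497%), and EXPB3 with array weights (0.396%) or without mutant replicate 1 (0.387%). The 4 passed when the dimmest 50% were left out (1.48%). No member passed without the intensity trend, on all probe sets (0.0308%) or on the filtered ones (0.0352%), or with an RNA quality index in the model (0.0572% and 0.141%). With the dimmest 25% left out, all 4 passed without mutant replicate 1, where 1.45% of the probe sets were called. TBL36 and XTH16 passed without wild type replicate 1 (0.475%). None passed without wild type replicate 2 (0.674%) or 3 (0.827%), or without mutant replicate 2 (0.522%) or 3 (0.434%). Their log2 changes kept their direction throughout, within ranges given below.

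**Figure D1:**
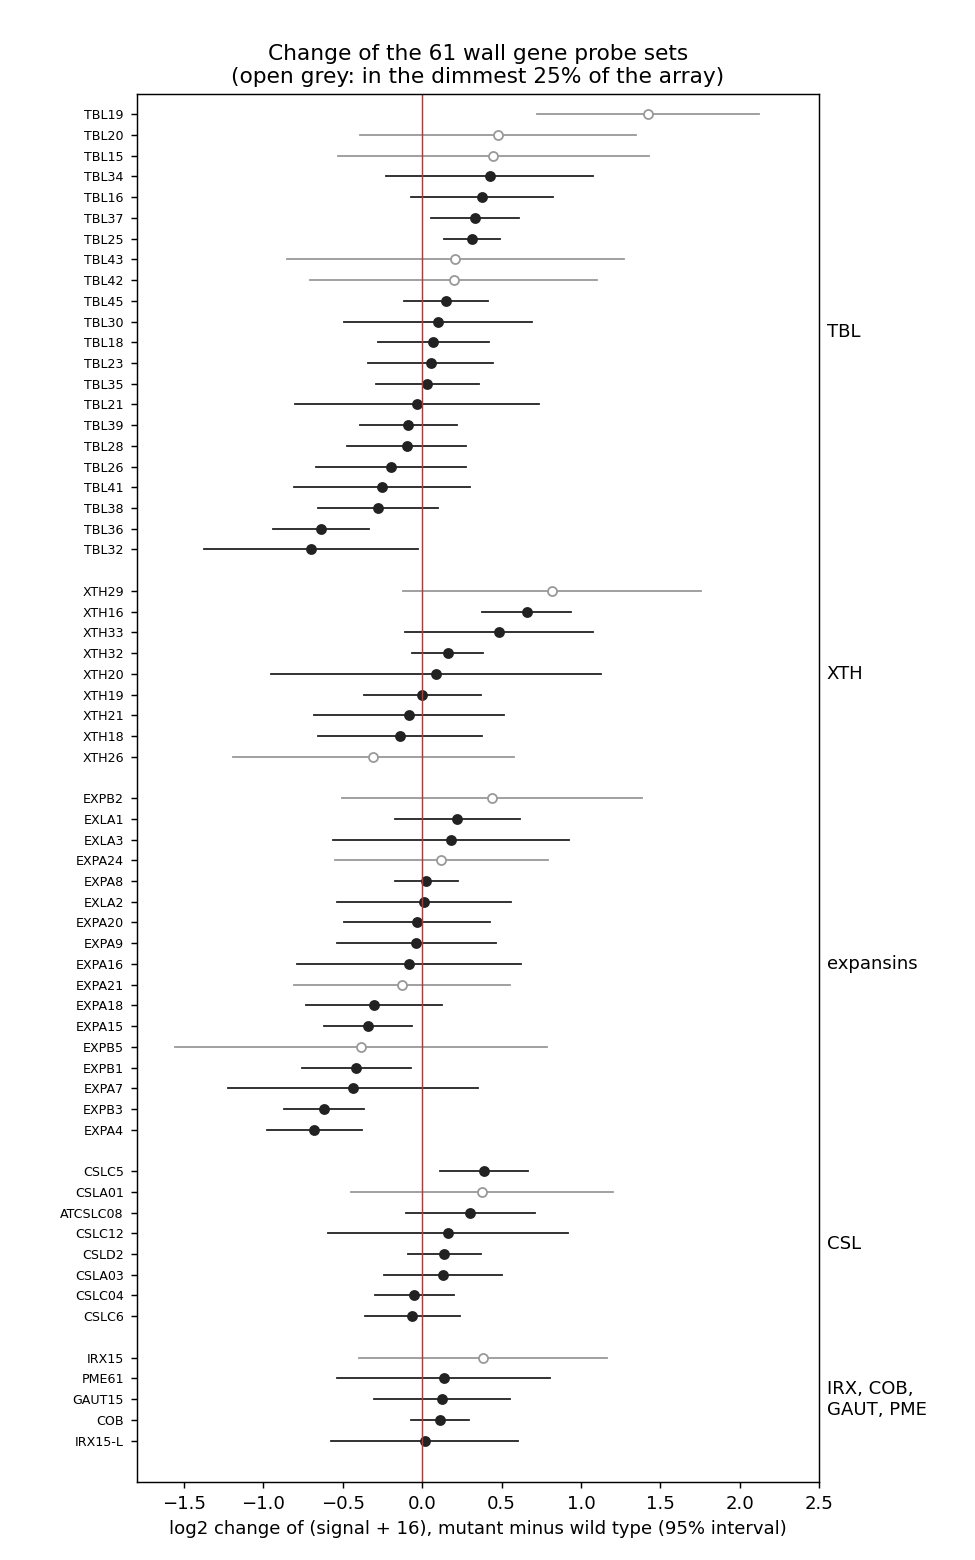
Log2 change (mutant minus wild type, on the log2(signal + 16) scale) of each of the 61 members, by family, with its 95% interval from the limma fit; open grey circles are the 13 members in the dimmest 25% of probe sets. TBL36, EXPB3 and EXPA4 lie between −0.68 and −0.62 and XTH16 at 0.66, and TBL19, at 1.42, is the one member with a change above 1.

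The genes of wall synthesis come first. CSL proteins are relatives of cellulose synthase, and several of them make hemicellulose backbones in the Golgi. The CSLC members make the glucan backbone of xyloglucan and the CSLA members include mannan synthases, while CSLD2 acts in tip growth of root hairs. Of the 8 CSL genes, 6 had a log2 change above 0 and their median was 0.15, against 0.01 over all probe sets. None passed the test. CSLC5 (AT4G31590) had signals of 464.6, 642.8 and 520.0 in wild type replicates 1, 2 and 3 and of 705.7, 756.6 and 667.9 in mutant replicates 1, 2 and 3. The groups did not overlap, although the lowest mutant value was close to that of wild type replicate 2. The log2 change was 0.39 ± 0.13 (SE), with an unadjusted p of 0.0106 and an adjusted p of 0.297.

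ATCSLC08 (AT2G24630) had 195.7, 194.0 and 198.0 in the wild type and 317.7, 216.0 and 215.0 in the mutant. The groups did not overlap, but 1 array, mutant replicate 1, held most of the difference (log2 change 0.30 ± 0.18, adjusted p = 0.624). Without that array the change was 0.13. The other 3 CSLC genes had changes on both sides of 0. CSLC04 was at −0.05 (95% interval −0.30 to 0.20), from a signal of 1036 ± 47.2 (SD, n = 3) to 1008 ± 162, and CSLC6 at −0.06 (−0.36 to 0.24). CSLC12, with signals from 33.5 to 92.5, was at 0.16 (−0.59 to 0.92). All 3 intervals contain 0.

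CSLD2 (AT5G16910) had 520.7, 578.8 and 614.2 in the wild type and 651.3, 600.1 and 637.0 in the mutant, a log2 change of 0.14 ± 0.10 (adjusted p = 0.709) with overlapping groups. The mannan synthase gene CSLA03 was at 0.13 ± 0.17, and its relative CSLA01 at 0.38 ± 0.38 with signals of 6.5 to 44.2. COB, a protein anchored at the outer face of the plasma membrane that orients cellulose in elongating cells, was measured tightly. Its signals were 1987.7, 2102.9 and 1905.6 in the wild type and 2220.2, 2045.7 and 2224.5 in the mutant. The change of 0.11 ± 0.08 has an interval of −0.07 to 0.30 (adjusted p = 0.699), so a change of 2-fold in either direction lies outside it.

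IRX15 and IRX15-L encode a pair of related Golgi proteins needed for normal xylan in secondary walls. IRX15-L (AT5G67210) had 88.6, 134.3 and 84.8 in the wild type and 129.7, 79.9 and 101.3 in the mutant, with a log2 change of 0.02 ± 0.27. IRX15 (AT3G50220) was dim on 5 of the 6 arrays, at 4.1 to 7.1, and had 26.4 in mutant replicate 3. Its change of 0.38 ± 0.36 (adjusted p = 0.777) rests on that array. GAUT15, of the galacturonosyltransferase family whose best known members make pectin, was at 0.13 ± 0.19, from 148 ± 21.5 to 162 ± 8.50. PME61, which encodes a pectin methylesterase, was at 0.14 ± 0.30, from 49.8 ± 13.0 to 56.0 ± 12.7. Both had overlapping groups.

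Genes of wall acetylation were the family with the most members here. Several TBL proteins are known as O-acetyltransferases, among them TBL32, TBL34 and TBL35 for xylan and TBL23, TBL25 and TBL26 for mannan. Of the 22 TBL genes, 14 had a log2 change above 0 and 8 below, with a median of 0.08. Without the 5 dim members the split was 9 to 8, with a median of 0.03. None passed in the test on all probe sets. At an unadjusted p under 0.05 there were 3 higher (TBL19, TBL25 and TBL37) and 2 lower (TBL36 and TBL32). Together they are 22.7% of the TBL genes, against 10.3% of all probe sets (5.23% higher and 5.05% lower).

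TBL36 (AT3G54260) had signals of 838.2, 927.9 and 1191.7 in the wild type and of 712.4, 588.3 and 571.8 in the mutant. Every mutant array lay below every wild type array. The log2 change was −0.64 ± 0.14, or 1.56-fold lower, from 986 ± 184 to 624 ± 76.9 (unadjusted p = 0.000718, adjusted p = 0.1002, or 0.0401 without the dimmest 25%). It ran from −0.74 to −0.49 over the alternative settings, the smallest without wild type replicate 3.

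TBL19 (AT5G15900) had 2.5, 7.3 and 2.4 in the wild type and 45.4, 40.9 and 27.8 in the mutant. The wild type values lie far below the 25th percentile of an array, which was 39.2 to 49.7, those of mutant replicates 1 and 2 lie near it, and that of mutant replicate 3 lies below the 49.7 of its own array. The log2 change was 1.42 ± 0.32 (unadjusted p = 0.000942, adjusted p = 0.1105), and this scale understates changes at such signals. Changes of at least 1 in either direction were seen in 1.47% of all probe sets. With a pseudocount of 1 in place of 16 the change was 3.05 (adjusted p = 0.122) and with 64 it was 0.58 (0.133), so its size is set by that choice, and with 64 it was smaller than the changes of EXPA4 (−0.61) and TBL36 (−0.60). No detection call was available to say whether the gene was measured above background in the wild type. Its neighbour TBL21 (AT5G15890), the adjacent coding gene, had 45.8, 61.4 and 31.2 in the wild type and 70.3, 39.3 and 28.2 in the mutant, a log2 change of −0.03 ± 0.35.

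TBL25 (AT1G01430), one of the mannan acetyltransferase genes, had a small difference with little spread. Its signals were 1429.9, 1407.8 and 1455.2 in the wild type and 1713.9, 1781.0 and 1851.1 in the mutant, with no overlap. The change of 0.31 ± 0.08 (1.24-fold, unadjusted p = 0.00226) had an adjusted p of 0.163, or 0.141 without the dimmest 25%. For the other mannan acetyltransferase genes, TBL23 was at 0.05 ± 0.18 and TBL26 at −0.20 ± 0.21, both with overlapping groups. The interval of TBL23, −0.34 to 0.45, contains the change of TBL25.

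Among the xylan acetyltransferase genes, TBL32 (AT3G11030) had 107.4, 141.3 and 128.5 in the wild type and 113.8, 43.4 and 68.8 in the mutant. Mutant replicate 1 lay within the wild type range, and the change was −0.70 ± 0.31 (unadjusted p = 0.0428, adjusted p = 0.466). It was the only member read by a probe set of the type marked _s_at, which can match transcripts of more than 1 gene. TBL34 was at 0.42 ± 0.30 (66.9 ± 22.9 to 93.1 ± 17.1) and TBL35 at 0.03 ± 0.15 (237 ± 11.02 to 243 ± 12.04), both with overlapping groups.

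TBL37 (AT2G34070) had 443.0, 476.1 and 376.0 in the wild type and 599.4, 498.6 and 539.7 in the mutant, without overlap, and a change of 0.33 ± 0.13 (unadjusted p = 0.0237, adjusted p = 0.394). TBL38, known as an acetylesterase of pectin in the seed coat, was at −0.28 ± 0.17. TBL16 was at 0.38 ± 0.20, where wild type replicate 1 (334.2) lay above mutant replicates 2 and 3. The adjacent genes TBL28 and TBL30 were at −0.10 ± 0.17 and 0.10 ± 0.27. The remaining TBL genes above the dim range, TBL18, TBL39, TBL41 and TBL45, had changes between −0.25 and 0.15. The 4 dim ones beside TBL19, TBL15, TBL20, TBL42 and TBL43, were at 0.20 to 0.48 with SEs of 0.40 to 0.48.

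**Figure D2:**
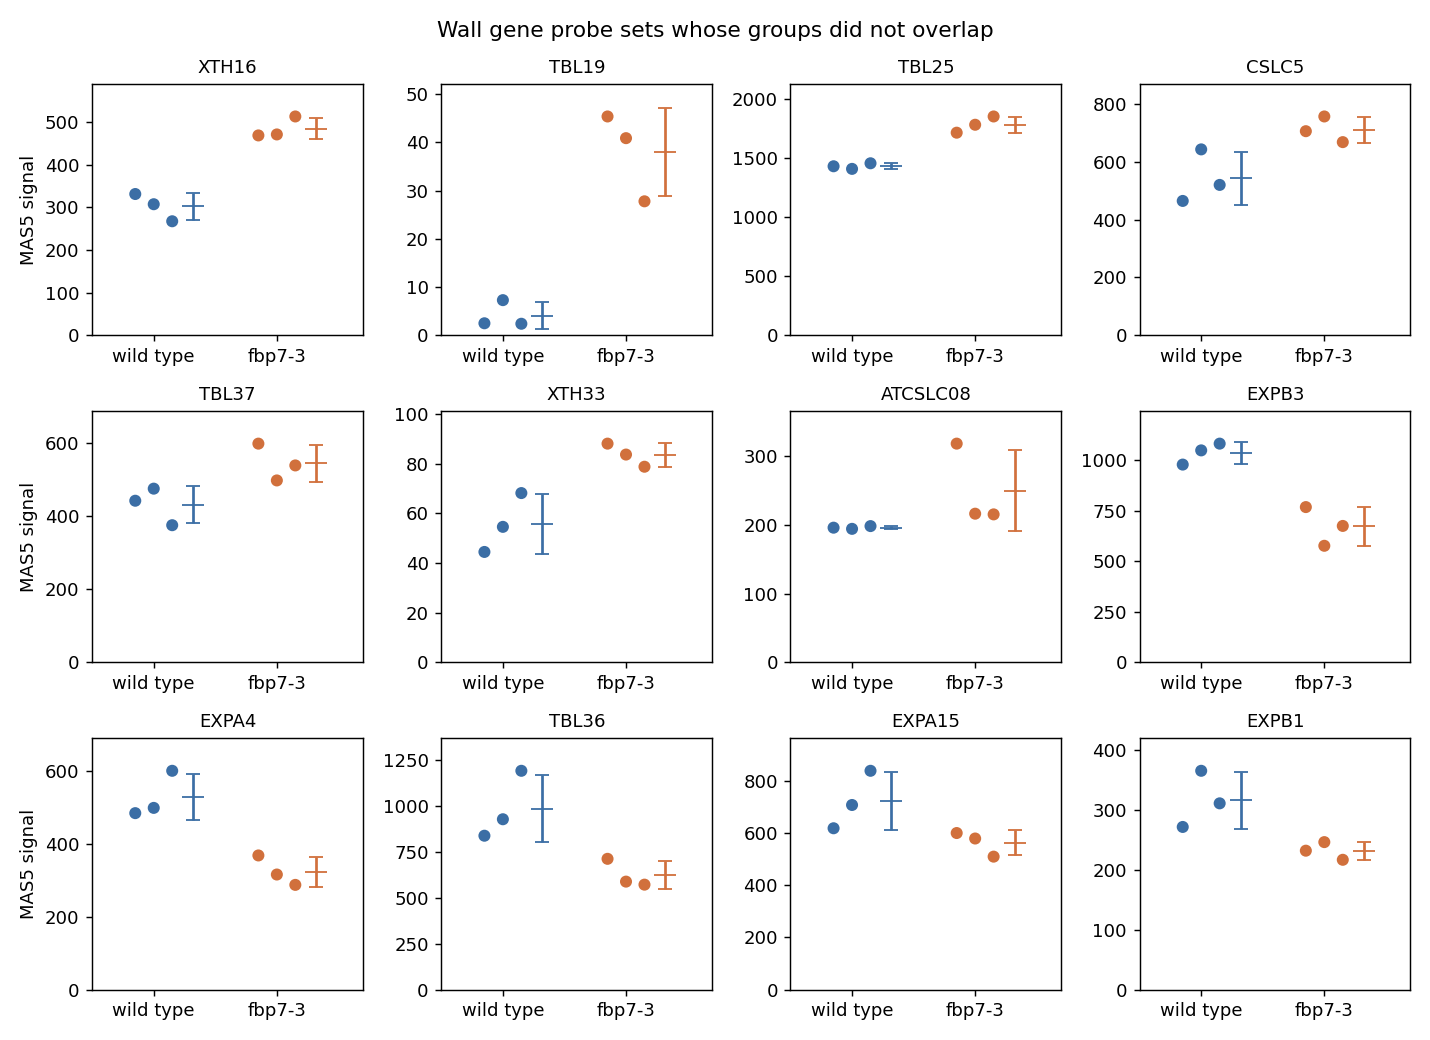
MAS5 signal (linear axis from 0) of the 12 members whose groups did not overlap, with 1 point per array and the mean ± SD of each group (n = 3) beside the points. The first 7 panels, from XTH16 to ATCSLC08, are higher on the mutant arrays and the last 5, from EXPB3 to EXPB1, are lower.

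The genes of wall remodelling come next, and among the XTH genes XTH16 came nearest to the threshold. XTH proteins cut xyloglucan chains and join the cut end to another chain. XTH16 (AT3G23730) had signals of 330.9, 307.0 and 267.1 in the wild type and 468.1, 470.4 and 512.5 in the mutant. The gap between the groups was wider than the range within either. The log2 change was 0.66 ± 0.13, or 1.58-fold, from 302 ± 32.23 to 484 ± 25 (unadjusted p = 0.0003, adjusted p = 0.0662, or 0.0296 without the dimmest 25%). It ran from 0.58 to 0.72 over the alternative settings.

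The other 8 XTH genes were weaker or dimmer. XTH33, whose product is tied to the plasma membrane, had 44.5, 54.6 and 68.2 in the wild type and 88.1, 83.7 and 78.8 in the mutant. The groups did not overlap, at a change of 0.48 ± 0.27 (unadjusted p = 0.0981, adjusted p = 0.575). XTH29 (AT4G18990) had 12.9, 4.7 and 6.7 in the wild type and 5.5, 46.8 and 38.9 in the mutant, so that mutant replicate 1 lay with the wild type (0.82 ± 0.43, adjusted p = 0.552). XTH32 was at 0.16 ± 0.10, from 938 ± 105 to 1046 ± 49.5, with an interval of −0.07 to 0.39.

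XTH18 and XTH19, adjacent genes that with XTH20 are known mainly from roots, had changes of −0.14 ± 0.23 and 0.00 ± 0.17. XTH19 went from 670 ± 174 to 661 ± 94.3, and its interval was −0.37 to 0.37. XTH20 was variable, from 18.2 in mutant replicate 2 to 124.4 in mutant replicate 3, at 0.09 ± 0.47. XTH21 was at −0.08 ± 0.27 and XTH26, known from root hairs, at −0.31 ± 0.40 with signals of 2.8 to 31.7. Over the 9 genes, 6 had a change above 0 and the median was 0.09.

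Expansins weaken the contacts between wall polymers without cutting them, which lets the wall yield to turgor. The EXPA genes encode alpha-expansins, the EXPB genes beta-expansins and the EXLA genes expansin-like proteins of unknown activity. Of the 17, 11 had a log2 change below 0, and the 4 with an unadjusted p under 0.05 were all lower in the mutant. Those 4, EXPB3, EXPA4, EXPA15 and EXPB1, were also the 4 whose groups did not overlap. They are 23.5% of the expansins, against 5.05% and 7.39% of all probe sets lower in the mutant by these rules. No expansin was higher by either rule, so the share is also 23.5% in either direction. Of all probe sets, 10.3% and 15.5% met these rules in either direction. The unadjusted rule was met by 22.7% of the TBL genes, 11.1% of the XTH genes and 1 of the 8 CSL genes. Groups did not overlap in 18.2% of the TBL genes, 22.2% of the XTH genes and 2 of the 8 CSL genes. Those of XTH and CSL were all higher in the mutant, and those of TBL went both ways. The expansins thus differed from these families more in direction than in share. No expansin passed in the test on all probe sets. Their difference from the other families was not tested, since the genes were chosen by name with earlier results known.

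EXPB3 (AT4G28250) had signals of 976.6, 1046.7 and 1080.0 in the wild type and of 766.9, 575.9 and 673.9 in the mutant. The log2 change was −0.62 ± 0.11, or 1.53-fold lower, from 1034 ± 52.8 to 672 ± 95.5 (unadjusted p = 0.000198, adjusted p = 0.055, or 0.0232 without the dimmest 25%). It ran from −0.72 to −0.51 over the alternative settings, the largest without mutant replicate 1. EXPB1 (AT2G20750) had 271.5, 365.2 and 310.9 in the wild type and 231.9, 246.2 and 216.7 in the mutant, a change of −0.41 ± 0.16 (unadjusted p = 0.0217, adjusted p = 0.383). Its groups were separated by the narrow gap between 246.2 and 271.5.

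EXPA4 (AT2G39700) had 484.0, 498.4 and 600.1 in the wild type and 368.0, 315.7 and 287.3 in the mutant. The highest mutant array, at 368.0, lay well below the lowest wild type array. The log2 change was −0.68 ± 0.14, or 1.60-fold lower, from 528 ± 63.3 to 324 ± 40.9 (unadjusted p = 0.000424, adjusted p = 0.0799, or 0.0335 without the dimmest 25%). It ran from −0.77 to −0.53 over the alternative settings. EXPA15 (AT2G03090) had 618.8, 708.0 and 839.1 in the wild type and 600.5, 579.5 and 510.0 in the mutant, with a change of −0.34 ± 0.13 (unadjusted p = 0.0202, adjusted p = 0.374). Mutant replicate 1 lay just below wild type replicate 1.

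The root hair expansin genes EXPA7 and EXPA18 had overlapping groups. EXPA18 had 300.9, 213.5 and 205.0 in the wild type and 201.9, 160.4 and 205.9 in the mutant, a change of −0.30 ± 0.19 (adjusted p = 0.644). EXPA7 had 135.2, 170.2 and 72.1 in the wild type and 118.7, 46.8 and 102.0 in the mutant, a change of −0.44 ± 0.36 (adjusted p = 0.738). The within-group SD on the log2 scale was 0.24 for EXPA18 and 0.57 for EXPA7. In whole seedlings fewer cells of a type and less RNA per cell cannot be told apart, for these genes and for all others here.

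EXPA8 had signals of 2164.2 to 2572.9 on the 6 arrays, at a change of 0.03 ± 0.09 with an interval of −0.17 to 0.22, which leaves little room for a shift like that of EXPA4. EXPA9, EXPA16 and EXPA20 had changes of −0.04, −0.09 and −0.03, with SEs of 0.21 to 0.32. The expansin-like genes lay above 0, with EXLA1 at 0.22 ± 0.18, its neighbour EXLA3 at 0.18 ± 0.34 and EXLA2 at 0.01 ± 0.25, and all with overlapping groups. The dim members EXPA21, EXPA24, EXPB2 and EXPB5, at signals of 2.9 to 80.4, had changes of −0.38 to 0.44 and SEs of 0.30 to 0.53. Over the EXPA and EXPB genes above the dim range, a subset chosen after the values were seen, 9 of 10 had a change below 0, with a median of −0.32, where the median of all probe sets above that range was 0.00 and 49.9% of them had a change above 0. Over all 14 EXPA and EXPB genes it was 11 with a median of −0.22, and the median of all 17 expansins was −0.085, as it was for the 13 above the dim range.

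The families were compared by their medians on each array, after each probe set was centred on its own mean over the 6 arrays. The CSL median was −0.17, 0.03 and 0.00 in wild type replicates 1, 2 and 3 and 0.05, 0.04 and 0.11 in the mutant. The groups did not overlap, but replicate 2 of each was nearly level, and over the 7 CSL genes above the dim range they overlapped. The EXPB median, over 4 genes, was 0.12, 0.37 and 0.28 in the wild type and −0.06, −0.32 and 0.04 in the mutant, again without overlap. Of those 4 genes, EXPB2 and EXPB5 are dim and the other 2 are EXPB3 and EXPB1, described above. The medians of TBL, XTH, EXPA and EXLA overlapped between the groups. The EXPA median was 0.04, 0.12 and −0.05 in the wild type and −0.05, −0.13 and −0.02 in the mutant. These values are descriptions of small families. Over all members the median log2 change was 0.07, with 37 of 61 above 0 (60.7%, against 51.7% of all probe sets).

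**Figure D3:**
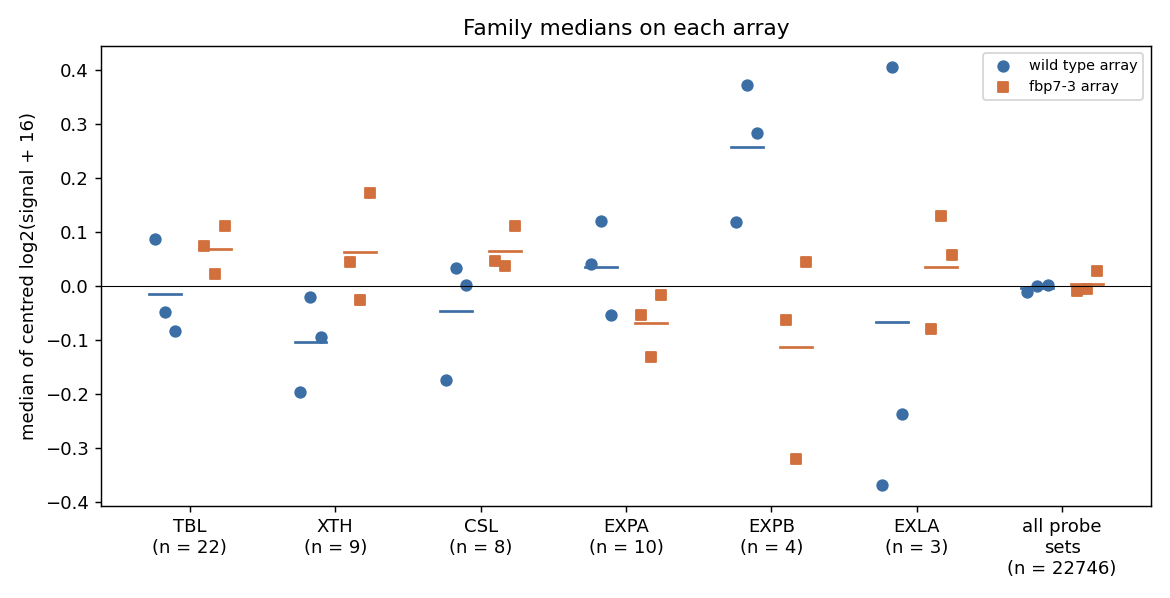
Median of log2(signal + 16), each probe set centred on its mean over the arrays, for each family on each of the 6 arrays (circles wild type, squares fbp7-3, bars the group means). EXPB and CSL do not overlap between the groups, EXPB with the mutant lower and CSL with the mutant higher, while all probe sets together stay between −0.01 and 0.03.

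The spread between arrays depended on the signal. The within-group SD on the log2 scale had a median of 0.21 over the 48 members above the dim range and 0.55 over the 13 within it. The 95% interval of the change lay wholly inside a 2-fold change in both directions for 43 of the 48 and for 2 of the 13. Larger changes are therefore outside the intervals of most brighter members, but little can be said of XTH26, XTH29, IRX15, CSLA01, EXPB5 and the other dim genes. Mutant replicate 3 was the highest array for 5 of the 13 dim members and the lowest for 0. That array also had the highest 25th percentile of signal, 49.7, against 39.2 to 42.9 on the others. How often it was the highest or the lowest array over all probe sets is not given here.

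The mean of the RNA quality ratios moved with the groups, although not every ratio did. The mean log2 ratio of 3′ to 5′ signal over the actin, GAPDH and ubiquitin controls ranged on the mutant arrays from 1.07 to 1.33, and on wild type arrays from 0.88 to 1.00 (two-sided exact permutation p = 0.1, the smallest that 3 against 3 allows). With that index in the model, the log2 changes were −0.59 ± 0.18 for EXPB3, 0.58 ± 0.20 for XTH16, −0.53 ± 0.21 for EXPA4 and −0.52 ± 0.22 for TBL36. Their adjusted p-values were then 0.728 to 0.825, with larger SEs than before. For EXPA15 and EXPB1 the changes were −0.20 and −0.22, and for CSLC5 and TBL25 they were 0.60 and 0.24. Each control is read by a first and a second series of probe sets. Every mutant array lay above every wild type array in both GAPDH ratios and the first ubiquitin ratio. The groups overlapped in both actin ratios and the second ubiquitin ratio (exact permutation p = 0.3 to 0.7). The index itself did not overlap between the groups, so the model with it cannot separate RNA quality from genotype. The part of RNA quality in these results was not tested further.

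Markers of tissue make-up were thinly covered, at 8 genes. EXPA7 and EXPA18 stand for root hairs and are given above. GUT2 (also named IRX10, an enzyme of xylan synthesis in xylem) had mutant signals of 237.6 to 303.8, just clear of its wild type signals of 205.5 to 237.5. For photosynthetic tissue, LHCB4.1, LHCB4.2 and LHCB4.3, of the light-harvesting antenna, had log2 changes of 0.24 ± 0.12, 0.32 ± 0.12 and −0.21 ± 0.20. Their unadjusted p-values (limma) were 0.0655, 0.0279 and 0.302, and their adjusted ones 0.529, 0.411 and 0.777. The groups of LHCB4.1 did not overlap (wild type at most 20962.6, mutant at least 21527.9), while those of LHCB4.2 and LHCB4.3 did. For seed and embryo, M17 and ICL had −2.02 and −1.05, with the highest signals in wild type replicate 2 (1236.4 and 404.8). The mutant arrays of M17, at most 124.5, all lay below the wild type arrays, at least 201.2, and its adjusted p was 0.133, or 0.0372 without the dimmest 25%. The groups of ICL overlapped (adjusted p = 0.478). None of the pollen markers looked for was paired with a single-gene probe set in the annotation used. Their part in the wall gene results was not tested. Wild type replicate 2 was the highest array for 16 of the 48 brighter wall genes, more than any other array. The same share over all probe sets is not given here. The median signal of that whole array was 200.9, below only that of mutant replicate 3, at 201.65, which was the highest array for 7 of the 48.

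Other wall genes were looked for by further symbols, those of wall proteins, sugar nucleotide enzymes, trimming enzymes, sensors and regulators, and 4 were found. Of these PRP39 and PRP39-2 share only their letters with the proline-rich wall proteins and are splicing factors. The wall receptor kinase gene THE1 was at −0.08 ± 0.12, from 731 ± 54.6 to 695 ± 95.4, and the beta-galactosidase gene BGAL16 at −0.18 ± 0.29. None of the 4 passed at an adjusted or an unadjusted p under 0.05.

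**Figure D4:**
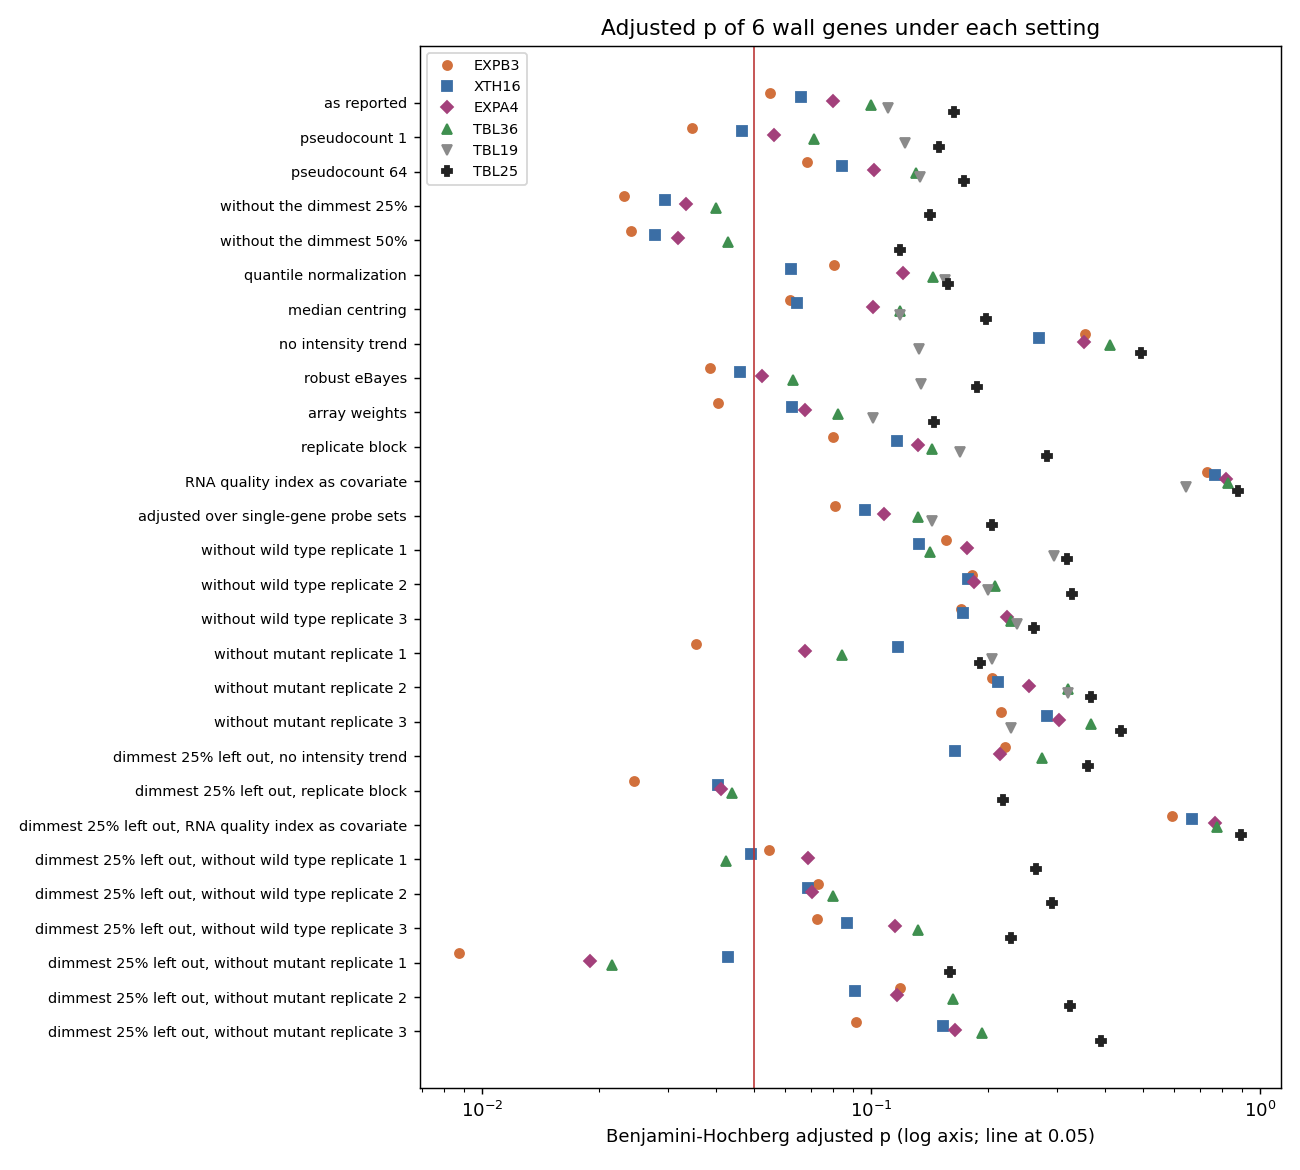
Benjamini-Hochberg adjusted p (log axis, red line at 0.05) of the 6 members with the smallest unadjusted p, under the reported setting and each alternative. EXPB3, XTH16, EXPA4 and TBL36 lie left of the line when the dimmest 25% or 50% of probe sets are left out and right of it under the reported setting. TBL25 and TBL19 lie right of it wherever they were fitted.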

How the data were processed

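MAS5 signal intensities of 6 ATH1 arrays were used as deposited, per the submitters' processing notes; the sources used here name no version or settings. The mean of each array, without the lowest and highest 2%, was 500.0, so arrays share a scaling target, which assumes a like overall level. Gene names came from the platform annotation, and loci and gene order from RefSeq (TAIR10.1). Array build and sequences are not given, so no coordinates are printed.

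Here, log2(signal + 16) of all 22746 non-control probe sets was fitted in R 4.3.3 by limma 3.58.1 (lmFit, then eBayes with an intensity trend, 4 residual and 7.08 prior degrees of freedom). For a gene that varies much, the moderated SE can be too small. The p-values were adjusted by Benjamini-Hochberg over all probe sets. No filter on dim signals was used, as the choice of members asks. The fit was tested on simulated data.

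The members, lists and tests were chosen with earlier results of these data known. Named were members called in this fit or without the dimmest 25%, the 3 smallest p-values of each family, COB and tissue markers; all others were named after their values were seen. Replicate numbers are shared between groups, but same-numbered arrays did not deviate together (r = −0.03 to 0.00 over probe sets), so no pairing was used. Figures were drawn with matplotlib 3.10.9.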

Additional observations from a re-analysis of the deposited data

Results flagged for a closer look

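Some genes with a synonym that fits the rule, but listed under another symbol, lay outside the comparison. Of 6 such probe sets, 3 had every mutant array above every wild type array, against 8.11% of all probe sets, and none passed at an adjusted p under 0.05 (limma). EXGT-A3 (also named XTH27) had a mean mutant signal of 2162.6, and 1870.5 for wild type (log2 change 0.21 ± 0.08). GUT2 (IRX10) had 278 against 226 (0.28 ± 0.16). AT2G31110 (TBL40) had 281 against 219 (0.33 ± 0.15) by 1 probe set, but a second probe set of that gene had 92.7 in both groups (−0.01 ± 0.27), so the gene's probe sets disagree.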

How the results depend on the processing

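In the test on all probe sets 0 members passed, and 18 alternatives listed at first and 9 added after the data were seen were run. Higher and lower calls were 1 and 1 with a pseudocount of 1 or robust eBayes, 1 and 3 without the dimmest 25% or 50%, 0 and 1 with array weights, and 0 to 0 and 0 to 1 when 1 array was left out. With the dimmest 25% left out as well, they were 1 and 3 with the replicate block, 0 to 1 and 0 to 3 with 1 array left out, and 0 in the model with no intensity trend and in that with the RNA quality index. That filter with the replicate block called 211 of 17059 probe sets. With the replicate block alone 0 members passed, 85 probe sets were called over the whole table, and the marker M17 passed (adjusted p = 0.0344 with the block). At an unadjusted p under 0.05 the counts, 5 higher and 6 lower, were 4 to 8 and 3 to 6 with 1 array left out (3 higher with the filter and without wild type replicate 3), and 3 and 3 with the RNA quality index and the filter. Of all 22746 probe sets, 2337 met that threshold in the main fit and 1847 to 2383 with 1 array left out. Of the 17059 left by the filter, 1870 met it without wild type replicate 3 and 1046 with the index. The TBL median of 0.08 was −0.043 with the RNA quality index and 0.0076 to 0.15 with 1 array left out. The XTH median of 0.09 was −0.037 with array weights, 0.19 with the index and 0.063 to 0.20 with 1 array left out. The expansin median of −0.09 was −0.34 without the dimmest 50%, which leaves fewer genes, and −0.17 to −0.02 with 1 array left out. The CSL median of 0.15 was 0.031 to 0.25 with 1 array left out, the lowest without wild type replicate 1. Of 19 named genes 16 kept their direction under every alternative in which they were fitted. IRX15 turned to −0.26 with the index, IRX15-L to −0.049 with array weights and, with or without the filter, to −0.062, −0.089 and −0.14 without wild type replicates 1 and 3 and mutant replicate 1 (−0.14 to 0.20 over the arrays left out), and PME61 to −0.039 without wild type replicate 3 (up to 0.29 without mutant replicate 3). Over all probe sets, the 75 calls were 180 and 168 without the dimmest 25% and 50%, 113 with robust eBayes, 21 when adjusted over single-gene probe sets, 13 with the index, 7 without the trend and 20 to 88 with 1 array left out. The cause was not tested. Each member has 1 probe set, so taking the brightest changes nothing. The medians do not depend on the intensity trend or on robust eBayes, but they do change with array weights.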
